A study of Mus musculus with 2 samples.

Results

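The 9 interferon response genes Ifitm3, Isg15, Stat2, Irf9, Irf7, Bst2, Ifi27, Lgals3bp and Xaf1 were described across the cell types of the mouse dentate gyrus. They are 9 of the 17592 gene columns of the deposited table and were picked as a list of gene names, with earlier results of these data known. The study profiled single cells of dentate gyri of C57BL/6 mice with the 10x Genomics 3′ assay after papain digestion and a flow sort for live, propidium iodide-negative cells. It has 1 old library, from mice 16 months of age, and 1 young library, from mice 3 months of age. No treatment or mutant allele is named for either, and how many mice each library pools is not given in the sources used here.

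Interferons are secreted proteins with which infected or alarmed cells warn their neighbours. Type I interferons bind a receptor of the subunits IFNAR1 and IFNAR2, whose kinases phosphorylate STAT2. STAT2 and IRF9 are subunits of the complex ISGF3, which binds a DNA motif, the interferon-stimulated response element, and turns on a large set of antiviral genes. Some of these genes are also transcribed at a low level without infection, in what is called tonic signalling, and brain endothelial cells and microglia are known to respond strongly to interferon.

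The table was read as counts of unique molecular identifiers (UMIs), each standing for 1 captured transcript, and a level below is the number of UMIs of a gene per 10000 UMIs of a cell class. The old library held 1430 cells and 7451506 UMIs, and the young library held 2463 cells and 16217559 UMIs. Of the old cells, 1401 carried a barcode that was also in the young library, which is 98.0% of them. A group of clusters with a median mitochondrial share under 1% was set apart (289 old and 1315 young cells), and the cells left, 1141 old and 1148 young with 1113 barcodes in both, are called brain-class cells here. Their old and young values are for the most part the same cells read in both libraries, so the young values lead the description of cell types, the old values stand beside them as a second reading and not as a second animal, and no test between ages or classes was possible. Intervals are exact 95% intervals and cover counting error only.

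Cells were clustered without the interferon genes and named from marker genes, with "-like" understood after each class name. There were 7 classes of at least 30 young cells. Of the vessel classes, the endothelial-like one had 129 cells in each library and the pericyte-like one had 68 old and 70 young cells. The microglia-like class had 359 old and 363 young cells, and the astrocyte-like class 311 old and 304 young. The oligodendrocyte lineage gave 40 old and 45 young precursor-like cells, and 81 old and 82 young mature ones. The last class, neuroblast or immature granule neuron-like, had 51 old and 53 young cells and is called neuroblast-like below. Stress and early response genes (Atf3, Egr1, Jun, Junb and Zfp36) were among the top 10 genes of the microglia-like cluster, beside the microglial markers Cx3cr1 and P2ry12. The labelled tissue was the dentate gyrus, and the neuroblast or immature granule neuron-like cells carried its neurogenic markers, with Sox11, Igfbpl1 and Tubb3 among their leading genes. Another 6 classes held 3 to 15 cells in a library, and 51 old and 54 young brain-class cells kept no name.

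The members lie on 7 chromosomes of the mouse genome (build GRCm38, GENCODE M21). On chromosome 7, Ifitm3 spans chr7:141009586-141010770 and Irf7 spans chr7:141262706-141266481, both on the minus strand. Isg15 lies at chr4:156199424-156200818 on the minus strand and Bst2 at chr8:71534255-71537456 on the minus strand. Stat2 lies at chr10:128270559-128292849 and Xaf1 at chr11:72301629-72313733, both on the plus strand, and Lgals3bp lies at chr11:118392751-118402092 on the minus strand. Ifi27 lies at chr12:103434211-103440239 and Irf9 at chr14:55603571-55610030, both on the plus strand. Irf9 overlaps Rnf31 on the same strand, so some of its UMIs may belong to that gene, and Irf7 overlaps Phrf1 on the other strand. No member shared as much as 50% of the 31-base words of its last 500 transcript bases with another gene. For Ifitm3 the share was 28.3%, most of it with the pseudogene Gm7676.

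Promoter windows of 250 bases before to 50 bases after the start site (RefSeq, GRCm38.p6) were found for 8 of the 9 members, and they were searched on both strands for the core of the response element that ISGF3 binds, which is GAAA and a repeated GAAA with any pair of bases between. Of these 8 members, 4 held the core (Isg15, Bst2, Stat2 and Ifitm3), against 3.44% of the 32851 windows in the table. The matched stretches are shown because elements of this kind are how the interferon signal is known to reach its target genes. A match describes the letters and is no evidence of binding here. Capitals mark the core or overlapping cores, and each stretch reads 5′ to 3′ along the gene.
Isg15, chr4:156200835-156200936, minus strand: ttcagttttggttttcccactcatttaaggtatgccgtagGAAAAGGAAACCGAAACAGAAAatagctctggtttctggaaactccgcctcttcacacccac
Bst2, chr8:71537547-71537642, minus strand: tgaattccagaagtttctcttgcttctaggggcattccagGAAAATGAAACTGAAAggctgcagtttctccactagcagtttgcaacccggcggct
Stat2, chr10:128270248-128270325, plus strand: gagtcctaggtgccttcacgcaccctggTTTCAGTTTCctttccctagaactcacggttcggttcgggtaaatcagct
Ifitm3, chr7:141010716-141010745, minus strand: cagGAAAAGGAAActtctgaGAAACCGAAA
Isg15 held 3 overlapping cores and Bst2 held 2, and the core of Stat2 was on the opposite strand. The 2 cores of Ifitm3 lay after its start site, and the others lay before it. Lgals3bp and Xaf1 held only the shorter interferon regulatory factor core AANNGAAA, which is part of every longer core. That short core was present in 6 of the 8 members and in 23.9% of all windows.
Lgals3bp, chr11:118401960-118402013, minus strand: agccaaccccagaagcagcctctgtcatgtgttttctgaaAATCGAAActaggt
Xaf1, chr11:72301572-72301628, plus strand: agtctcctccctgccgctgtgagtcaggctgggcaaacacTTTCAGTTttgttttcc
The letters of neither motif were in the windows of Irf7 or Irf9. The gamma-activated site TTCNNNGAA, an element of the type II interferon response, was in the windows of Ifitm3 and Bst2 and in 8.3% of all windows.

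The members were highest, as a group, in endothelial-like cells, which line the vessels and form the blood-brain barrier. In the young library 8 of the 9 members were at least 2-fold higher there than in the other brain-class cells (level plus 0.1), and 8.71% of the 12336 genes tested passed that fold. The count depends on the pseudocount and the fold. With a pseudocount of 1, which shrinks the folds of low genes, it was 2 members, against 2.85% of all genes. At the stricter limit of 4-fold it was 3 (Ifitm3, Isg15 and Irf7), against 3.95%. The member that did not pass 2-fold with 0.1 added was Lgals3bp, whose ratio was 1.79 (interval 1.19 to 2.62). No member was 2-fold lower in endothelial-like cells, against 16.6% of all genes. The median log2 difference of the members was 1.69, and that of all genes was -0.16. In the other 6 classes at most 1 member passed the fold upward. That was Ifitm3 in pericyte-like cells (8.3% of all genes), Lgals3bp in microglia-like cells (7.9%), Ifi27 in oligodendrocyte precursor-like cells (13.3%) and Xaf1 in mature oligodendrocyte-like cells (7.83%), with none in astrocyte-like cells (13.7%) or neuroblast-like cells (12.5%). Downward, 7 members passed the fold in neuroblast-like cells, against 17.3% of all genes, and 5 each did in oligodendrocyte precursor-like cells (11.7%) and mature oligodendrocyte-like cells (21.1%). Another 4 did so in astrocyte-like cells (13.7%), 2 in pericyte-like cells (16.3%) and 1 in microglia-like cells (24.1%).

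**Figure D1:**
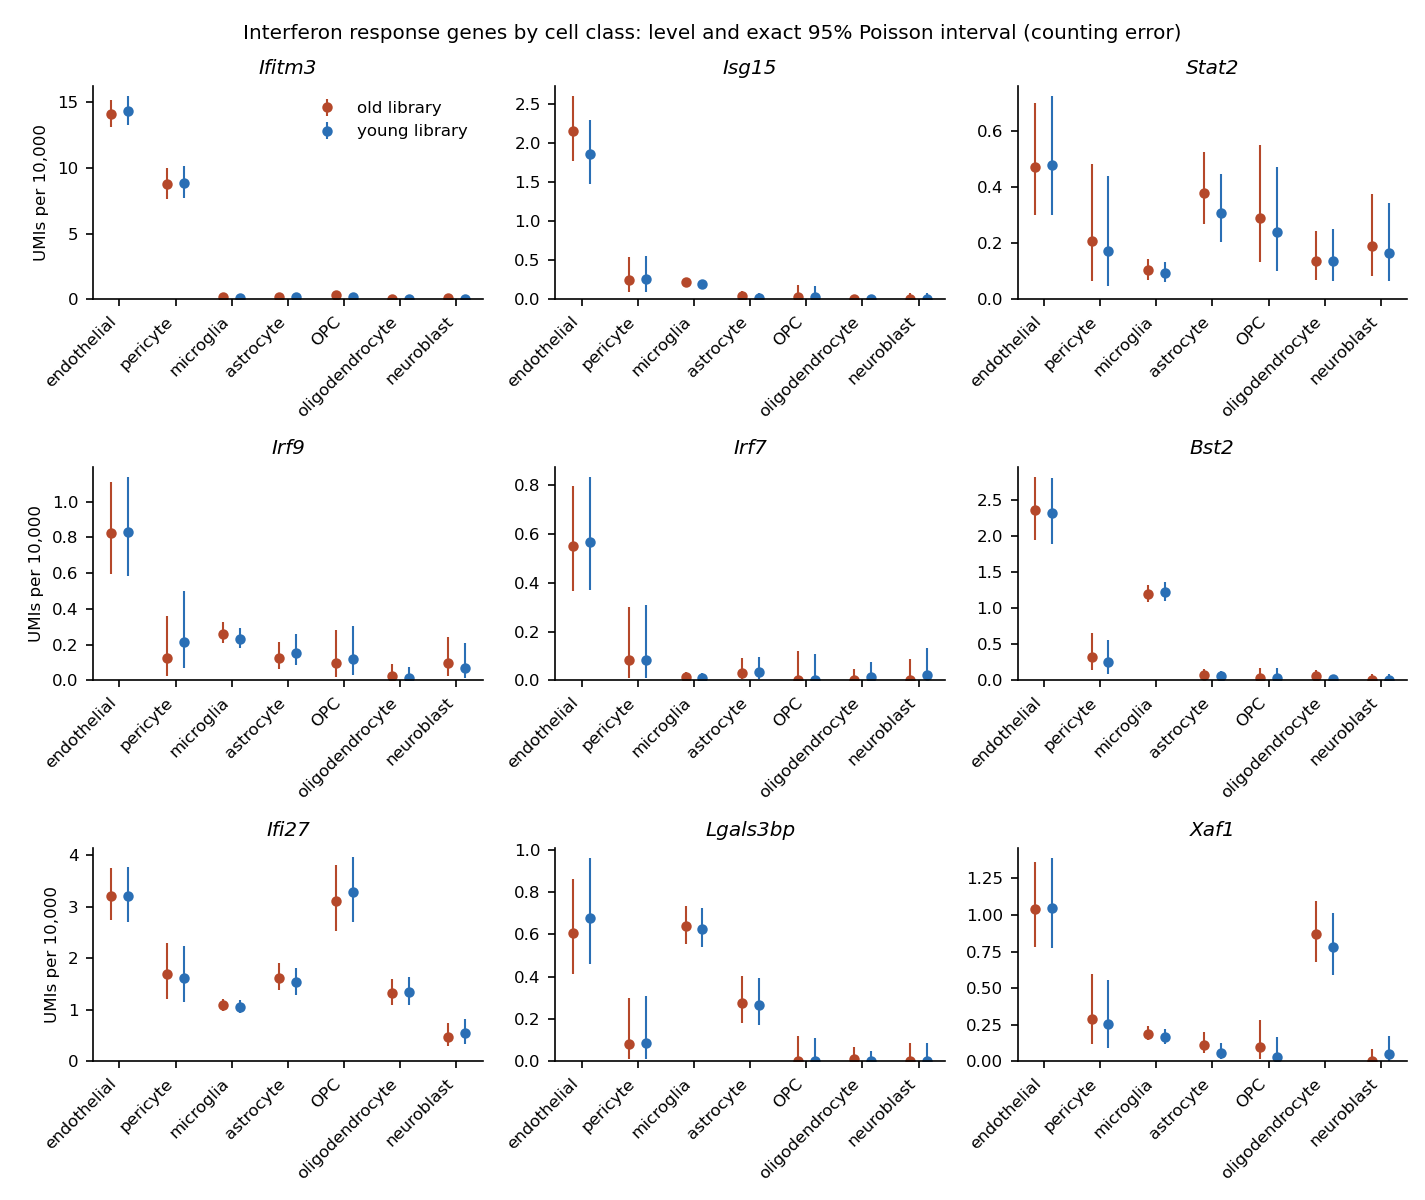
Level of each of the 9 genes (UMIs per 10,000 UMIs, y axis, from 0) in 7 cell classes (x axis), with old-library values left of young-library values and bars for exact 95% Poisson intervals. Old and young points overlap in nearly every class, and Ifitm3 reaches 14.1 and 14.3 in endothelial-like cells.

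The signal transducers of the set were sparse. Stat2, a subunit of ISGF3, had 24 old and 22 young UMIs in endothelial-like cells, levels of 0.470 and 0.480. Its young level in the endothelial-like cells was 3.23 times that of the other brain-class cells (interval 1.93 to 5.20). Astrocyte-like cells followed with 0.381 in the old and 0.309 in the young library, and their interval overlapped that of the endothelial-like cells. Microglia-like cells had the lowest Stat2 level, 0.103 in the old and 0.0928 in the young library. Stat2 was thus the most evenly spread of the 3 transducers, and every neighbouring pair in its order of classes overlapped in its intervals.

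Irf9, the DNA-binding subunit of ISGF3, stood at 0.823 in old and 0.828 in young endothelial-like cells, from 42 and 38 UMIs. Microglia-like cells came next with 0.263 in the old and 0.234 in the young library, and the endothelial-like interval (0.586 to 1.14, young) lay above theirs (0.181 to 0.296). Irf9 was rarest in mature oligodendrocyte-like cells, with 2 old UMIs and 1 young UMI. Irf7, a regulatory factor that is itself induced by interferon and amplifies the response, was rarer still. Its 28 old and 26 young UMIs in endothelial-like cells gave levels of 0.549 and 0.567. In the young library 26 of the 41 brain-class UMIs of Irf7, or 63.4%, fell in endothelial-like cells. Microglia-like cells, although the most numerous class, had 5 old and 3 young UMIs, a level of 0.0156 and 0.0103. The endothelial-like level of Irf7 was 22.7 times that of the other brain-class cells, with an interval of 11.6 to 46.0.

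Ifitm3, a membrane protein that blocks viruses from fusing with endosomes, was highest in the vessel classes. It had 717 old and 655 young UMIs in endothelial-like cells, levels of 14.1 and 14.3, and a UMI was seen in 86.0% of the old and 87.6% of the young cells. Pericyte-like cells, the contractile cells wrapped around capillaries, had 8.72 in the old and 8.86 in the young library. The endothelial-like level was 1.61 times the pericyte-like one (interval 1.38 to 1.89) and 134 times the microglia-like one (93.5 to 199) in the young library. Vascular smooth muscle-like cells (15 old and 14 young) had 3.97 and 4.09. Perivascular macrophage-like cells (11 old and 10 young) had 7.0 in the old and 7.64 in the young library. The parenchymal classes were far lower, with 0.206 and 0.210 in old and young astrocyte-like cells and 3 UMIs in the old and 0 in the young mature oligodendrocyte-like cells, whose median depth was 9500.5 young UMIs against 3237 in endothelial-like cells. The pericyte-like level was 62.1% of the endothelial-like level, and the 12 endothelial markers summed to 1.67% of their own endothelial-like level in the same pericyte-like cells. In astrocyte-like cells both figures were close, 1.47% for Ifitm3 and 1.28% for the endothelial markers. In microglia-like cells they were 0.746% for Ifitm3 and 0.957% for the markers. The part of stray endothelial RNA in these low Ifitm3 counts was not tested.

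The neighbouring genes of the IFITM family on chromosome 7 had different vascular patterns. Ifitm1, at chr7:140967221-140969825, had a level of 11.0 in old and 10.3 in young pericyte-like cells, against 0.255 in old and 0.240 in young endothelial-like cells. Ifitm2, at chr7:140954837-140955987, was present in both, with 8.47 and 7.92 in old and young pericyte-like cells and 4.14 and 4.25 in old and young endothelial-like cells. More than 50% of the 31-base words at the end of Ifitm2, 51.5%, were shared with another annotated gene, Gm45717, so its count is less certain. Ifitm3 was thus higher in endothelial-like cells, and Ifitm1 and Ifitm2 were higher in pericyte-like cells.

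Isg15, a small ubiquitin-like protein that is attached to other proteins during the antiviral response, was concentrated in endothelial-like cells. It had 110 old and 85 young UMIs there, levels of 2.16 and 1.85, and was seen in 36.4% of the old and 28.7% of the young cells. The young level was 12.3 times that of the other brain-class cells (9.07 to 16.8). Pericyte-like cells had 0.248 and 0.257, and microglia-like cells had 0.222 and 0.196, in the old and young libraries, and these classes overlapped in their intervals. No Isg15 UMI was found in mature oligodendrocyte-like or neuroblast-like cells of either library, which puts the young levels there at no more than 0.0506 and 0.0880. Of the 5 genes tested that handle ISG15, 3 were 2-fold higher in endothelial-like cells and 1 in astrocyte-like cells. Trim25, a ligase that joins ISG15 or ubiquitin to targets, was at 0.608 and 0.741 in old and young endothelial-like cells. Uba7, the activating enzyme, was at 0.431 and 0.414 in endothelial-like and 0.256 and 0.258 in microglia-like cells. Herc6, the main ISG15 ligase of the mouse, was at 0.391 and 0.409 in astrocyte-like and 0.333 and 0.327 in endothelial-like cells.

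Bst2, or tetherin, which holds budding virus particles on the cell surface, was highest in endothelial-like cells among the 7 large classes, followed by microglia-like cells. It had 120 old and 106 young UMIs in endothelial-like cells, levels of 2.35 and 2.31. Microglia-like cells had 384 old and 357 young UMIs, levels of 1.20 and 1.23, with a UMI in 56.3% and 54.0% of cells. Pericyte-like cells had 8 old and 6 young UMIs, levels of 0.331 and 0.257. At equal depth, with every cell thinned to 2000 UMIs, the shares in the young library were 35.8% of 95 endothelial-like cells and 21.6% of 347 microglia-like cells, against 2.04% of 147 astrocyte-like cells and 0 of 76 mature oligodendrocyte-like cells. Perivascular macrophage-like cells, few as they were, had higher levels of 11.2 in the old and 10.9 in the young library. A single cell held 31 of the 59 old and 29 of the 50 young UMIs of that class, and the levels without it were 6.67 and 5.81. No Bst2 UMI was found in neuroblast-like cells of either library.

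Lgals3bp, a secreted glycoprotein that binds galectins, was the only member whose young intervals in microglia-like and endothelial-like cells overlapped. The levels were 0.638 and 0.625 in old and young microglia-like cells and 0.608 and 0.676 in old and young endothelial-like cells. The young microglia-like level was 2.96 times that of the other brain-class cells (2.25 to 3.92). Astrocyte-like cells had 0.278 and 0.265. Oligodendrocyte precursor-like and neuroblast-like cells had 0 UMIs of it in both libraries.

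Xaf1, a partner of the apoptosis inhibitor XIAP, had a second site of expression outside the vessels. Endothelial-like cells had 1.04 in the old and 1.05 in the young library, and these intervals overlapped those of the myelin-forming cells. The mature oligodendrocyte-like levels were 0.869 in the old and 0.781 in the young library, from 70 and 57 UMIs in 46.9% and 41.5% of cells. Their precursors, with a median depth of 8009 young UMIs, had 3 old UMIs and 1 young UMI, in 7.5% and 2.22% of cells. The young mature oligodendrocyte-like level was 3.76 times that of the other brain-class cells (2.69 to 5.20), a log2 difference of 1.52. With cells thinned to 2000 UMIs that log2 difference was 0.91 and under the 2-fold limit. The 12 endothelial markers summed to 0.620% of their home level in young mature oligodendrocyte-like cells and to 0.747% in old ones. No Isg15 UMI was found in these cells in either library, and Ifitm3 had 3 old and 0 young UMIs. The part of stray endothelial RNA in their Xaf1 counts was not tested.

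Ifi27, a small membrane protein of mitochondria and the nuclear envelope whose human counterpart is a common marker of interferon exposure, was detected in all 7 large classes. Oligodendrocyte precursor-like cells were at 3.12 in the old and 3.28 in the young library, with a UMI in 72.5% and 75.6% of cells. Endothelial-like cells were at 3.21 and 3.20, and the order of these 2 classes could not be told beyond counting error. A level of 1.69 old and 1.63 young in pericyte-like cells, 1.63 and 1.54 in the astrocyte-like class and 1.33 and 1.34 in mature oligodendrocyte-like cells came next. Microglia-like cells followed at 1.09 and 1.06, and each of these 4 classes overlapped its neighbour in its interval. Neuroblast-like cells were lowest at 0.478 and 0.549, with a UMI in 22.6% of young cells at a median depth of 8778 UMIs, against 8009 in the precursors. The 3 choroid plexus-like cells had the highest level of all, 14.0 in the old and 14.1 in the young library, from 37 and 33 UMIs, 20 of the young ones in 1 cell. Its neighbour on chromosome 12, Ifi27l2a, was at 0.157 and 0.131 in old and young endothelial-like cells and had no UMI in pericyte-like, astrocyte-like or oligodendrocyte precursor-like cells.

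**Figure D2:**
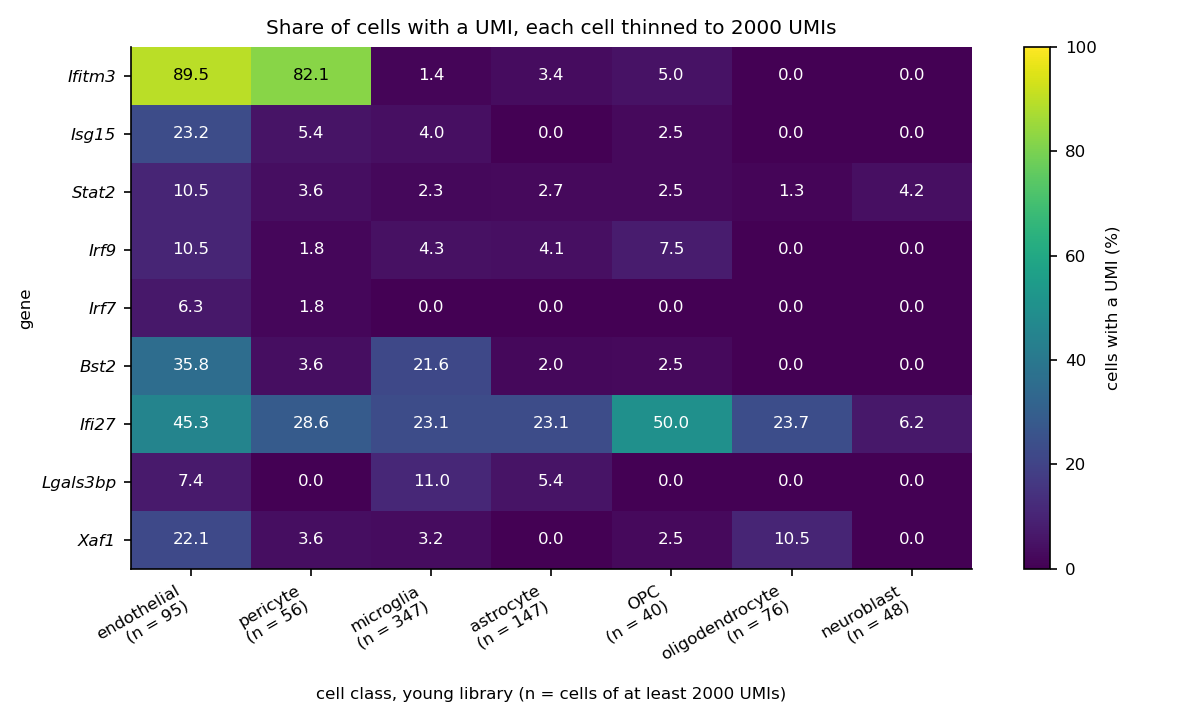
Share of young-library cells with a UMI of each gene (rows) in each class (columns), after thinning every cell to 2000 UMIs and leaving out shallower cells; n is the number of cells left. Ifitm3 is in 89.5% of endothelial-like and 82.1% of pericyte-like cells, and Ifi27 is the only gene above 5% in all 7 classes.

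The rest of the pathway was read from lists of interferon ligands, receptors, kinases, regulatory factors, sensors, brakes and effectors that hold 106 genes with at least 20 UMIs beside the members. In endothelial-like cells 42 of the 106 were at least 2-fold higher and 14 were 2-fold lower, with a median log2 difference of 0.70. In microglia-like cells 29 were higher and 7 lower, with a median of 0.32. The order of these classes turned with a pseudocount of 1, when 6 were higher in endothelial-like cells (2.85% of all genes) and 9 in microglia-like cells (2.73%). The other classes had few that were higher (7 in pericyte-like, 3 in astrocyte-like, 3 in oligodendrocyte precursor-like, 0 in mature oligodendrocyte-like and 1 in neuroblast-like cells) and 25 to 69 that were lower. The share of all genes past the same fold is given above for each class.

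**Figure D3:**
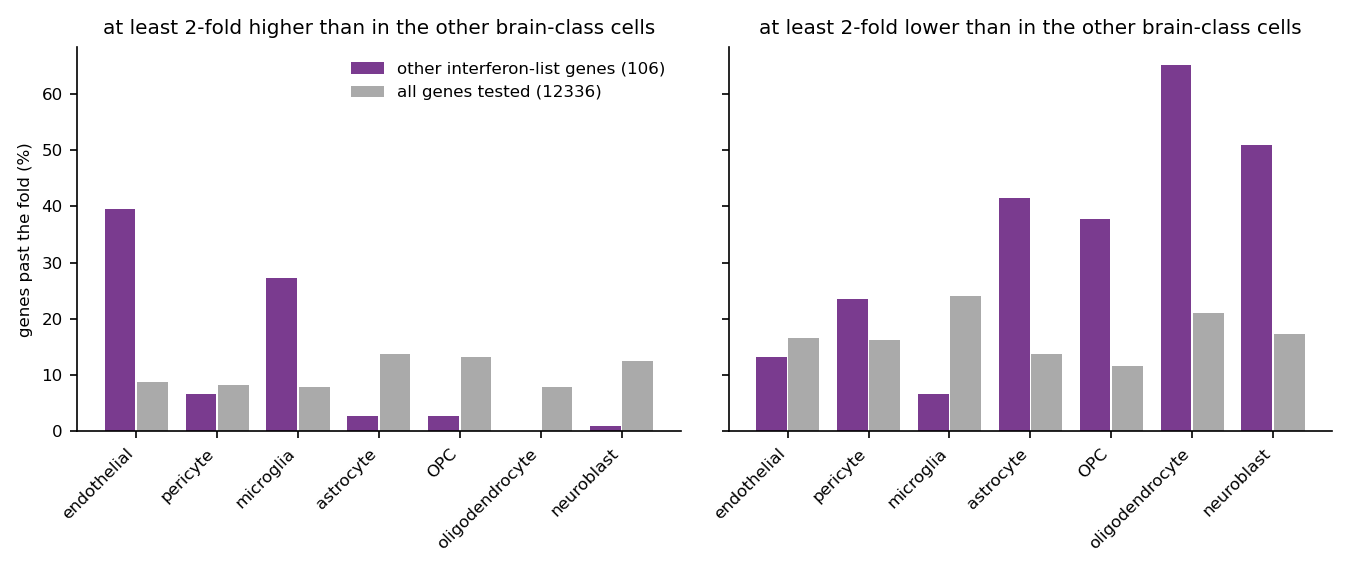
Percent of genes at least 2-fold higher (left) or lower (right) in a class than in the other brain-class cells of the young library, for the 106 other interferon-list genes and for all 12336 genes tested. In endothelial-like cells 39.6% of the interferon-list genes are higher, against 8.71% of all genes. With a pseudocount of 1 in place of 0.1 the endothelial-like count falls under the microglia-like one, 6 against 9 genes, where 2.85% and 2.73% of all genes pass.

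Of the 5 receptor genes tested, 3 were 2-fold higher in endothelial-like, 2 in microglia-like and 0 in pericyte-like cells. Of the 21 interferon ligands listed only Ifng, the type II interferon, had a column in the table, and it had 5 UMIs in young brain-class cells, none of them in the 7 large classes. Ifnar1, a subunit of the type I receptor, was at 2.14 and 2.27 in old and young endothelial-like cells, against 0.231 and 0.247 in old and young microglia-like cells. Its partner Ifnar2 was at 3.51 and 2.83 in endothelial-like and 2.08 and 1.72 in microglia-like cells. Ifngr1 and Ifngr2, the type II receptor, had the reverse pattern. Ifngr1 was at 6.76 and 6.82 in old and young microglia-like cells, against 0.804 and 0.850 in endothelial-like cells, and Ifngr2 was at 1.40 and 1.40 in microglia-like cells, against 0.216 and 0.131 in endothelial-like cells.

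Among the 5 kinases and STATs tested, 1 was 2-fold higher in endothelial-like cells and 0 in microglia-like cells, against 8.71% and 7.9% of all genes. Jak1, a kinase of the receptor, was at 1.62 and 1.71 in old and young microglia-like cells and at 0.725 and 0.719 in endothelial-like cells. Stat3 was at 1.08 and 1.17 in microglia-like cells and at 0.862 and 0.916 in endothelial-like cells, and neither gene was 2-fold higher in any of these classes. Of the 5 other regulatory factors tested, 3 were 2-fold higher in microglia-like cells and 0 in endothelial-like cells. Irf8, a factor of macrophage identity, was at 5.48 and 5.80 in old and young microglia-like cells, and at 0.176 and 0.153 in endothelial-like cells. Irf5, which acts downstream of Toll-like receptors, was at 2.40 and 2.49 in microglia-like cells, and Irf1, a factor that interferon induces, was at 1.5 in both libraries there and at 0.980 and 0.937 in endothelial-like cells.

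Of the 14 sensors and adaptors tested, 5 were 2-fold higher in microglia-like cells and 3 in endothelial-like cells. Tmem173, which encodes the DNA-sensing adaptor STING, was at 2.28 and 2.32 in old and young microglia-like cells and at 0.0588 and 0.0436 in endothelial-like cells. Tlr7, a receptor for single-stranded RNA, was at 0.872 and 0.880 in microglia-like cells and had no UMI in endothelial-like cells. Aim2, a sensor of cytosolic DNA, was at 0.897 and 0.952 in microglia-like cells. The brakes Socs3 and Ptpn6, which limit cytokine signalling, were also highest in microglia-like cells, Socs3 at 9.15 and 9.10 and Ptpn6 at 1.95 and 2.09. Socs3 is an early response gene too, and the early response genes that led this cluster stood beside it. Their part in its level was not tested.

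Of the 47 other antiviral effectors tested, 25 (53.2%) were 2-fold higher in endothelial-like cells, 7 (14.9%) in microglia-like cells and 5 (10.6%) in pericyte-like cells. The shares of all genes were 8.71%, 7.9% and 8.3%. Over all lists, most endothelial-like calls were lost with a pseudocount of 1, as given above. Slfn5, a Schlafen family gene, had the largest level among those past 4-fold, 2.70 and 2.66 in old and young endothelial-like cells, against 0.0657 and 0.0515 in microglia-like cells. Sp100, a component of nuclear bodies that restrict viruses, was at 1.27 and 1.22 in endothelial-like cells. The guanylate-binding protein gene Gbp3 was at 0.921 and 1.11 in endothelial-like cells, and its relative Gbp2 was at 0.843 and 0.872. Rtp4, a chaperone of membrane receptors that interferon induces, was at 0.941 and 0.981. Oasl2, a relative of the oligoadenylate synthetases, was at 0.882 and 0.785 in endothelial-like cells and reached 0.455 and 0.471 in pericyte-like cells. Ifit3, of the family that binds foreign RNA, was at 0.608 and 0.632, and Tnfsf10, the death ligand TRAIL, was at 0.804 and 0.828. The 2 effectors with the most UMIs were less restricted. Shisa5 was at 1.63 and 1.72 in endothelial-like and 0.804 and 0.818 in microglia-like cells, and Tor1aip1 was at 1.42 and 1.44 in old and young microglia-like cells. Not endothelial were Ifi203, which was at 1.41 and 1.11 in old and young pericyte-like cells and at 0.118 and 0.131 in endothelial-like cells, and Slfn8, which was at 0.453 and 0.447 in microglia-like cells with no UMI in endothelial-like cells.

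Antigen presentation genes were shared between the classes, with 6 of 11 higher in microglia-like and 5 of 11 in endothelial-like cells. H2-D1, a class I heavy chain, was at 12.5 in endothelial-like cells of both libraries and at 6.94 and 6.86 in old and young microglia-like cells, and B2m, its light chain, was at 7.58 and 8.0 in endothelial-like and 11.8 and 11.8 in microglia-like cells. Microglia-like cells also held the chemokine genes Ccl12, at 3.23 and 3.25, and Ccl2, at 0.547 and 0.550 in the old and young libraries. Both genes were among the top 10 of the small perivascular macrophage-like cluster too.

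Within endothelial-like cells the antiviral level was higher in the cells that held Isg15. Each of the 95 young cells of at least 2000 UMIs was thinned to that depth, and 22 of them had an Isg15 UMI. Xaf1 was seen in 36.4% of the cells with Isg15 (interval 17.2 to 59.3) and in 17.8% of the 73 cells without it (9.84 to 28.5). Lgals3bp was seen in 22.7% of the cells with Isg15 (7.82 to 45.4) and in 2.74% of those without (0.334 to 9.55). Ifitm3 (95.5% and 87.7%), Bst2 (40.9% and 34.2%), Ifi27 (50.0% and 43.8%) and Irf7 (9.09% and 5.48%) were also seen more often beside Isg15. Stat2 and Irf9 went the other way, each in 9.09% of the cells with Isg15 and 11.0% of those without. The intervals of each of these pairs overlapped. The 57 antiviral effector genes, which do not include the members, summed to a level of 43.0 in the cells with Isg15 (37.0 to 49.5) and 23.5 in those without (21.1 to 26.1), and these intervals did not overlap.

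The same held for Stat2 (54.0 in the 10 cells with it, 24.9 in the 85 without), Irf9 (49.5 in 10 cells and 25.5 in 85), Lgals3bp (52.1 in 7 cells and 26.1 in 88) and Xaf1 (38.8 in 21 cells and 24.9 in 74), with intervals that did not overlap, and for Ifitm3 (29.4 in 85 cells and 16.0 in 10). For Irf7 (35.8 in 6 cells and 27.5 in 89) and Bst2 (29.7 in 34 cells and 27.0 in 61) the intervals overlapped. Ifi27 went the other way. The antiviral level was 23.3 in the 43 endothelial-like cells with Ifi27 (20.1 to 26.7) and 31.9 in the 52 without (28.6 to 35.5). Over all 36 pairs of members, the share of endothelial-like cells with the second gene was higher beside the first in 24. In microglia-like cells this was so for 20 of the 28 pairs with enough cells. The cells come from 1 library, so these are descriptions of those cells. The intervals of the antiviral levels, those beside Isg15 included, rest on UMIs summed over cells and leave out the spread between cells. A single endothelial-like cell held 45 antiviral UMIs of 3062 before thinning, and the part of such cells in these levels was not tested.

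**Figure D4:**
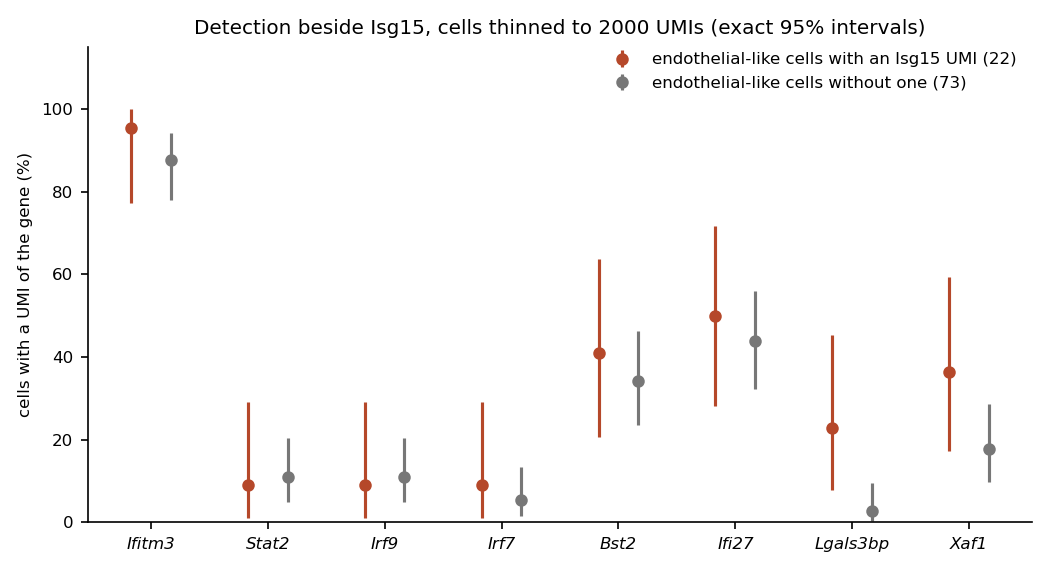
Share of endothelial-like cells of the young library with a UMI of each other member (y axis, percent), for the 22 cells with an Isg15 UMI (left points) and the 73 without (right points), after thinning to 2000 UMIs; bars are exact 95% intervals. Lgals3bp is in 22.7% and 2.74% of cells and Xaf1 in 36.4% and 17.8%, with overlapping intervals. Stat2 and Irf9 go the other way, each in 9.09% and 11.0%.

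Of the microglia-like cells, 1 stood far above the rest of its class in antiviral UMIs. The median cell of the young library had 8 UMIs of the 57 antiviral genes, and the second highest had 45. A single cell had 124 UMIs of 42 of these genes in the old and in the young library, out of 10739 and 9546 UMIs in all. It held 32 old and 28 young UMIs of Bst2, 16 and 13 of Ifitm3, 4 and 4 of Lgals3bp, 3 and 3 of Xaf1, 2 and 2 of Isg15, and none of Irf7 or Irf9. Its Ifitm3 UMIs were 13 of the 31 in all young microglia-like cells, and the class level without that cell was 0.0621. Genes chosen after their values were seen included Oasl2, with 6 UMIs in that cell and 0 in the other 362 young microglia-like cells, Ifi204, with 11 and 3, and Ifit2, with 6 and 3. All 12 microglial markers were present in it with 566 young UMIs, the 8 perivascular macrophage markers were at 0, 4 of the 12 endothelial markers had 16 UMIs, and the doublet caller did not mark it. Bst2 without that cell was at 1.10 in the old and 1.13 in the young microglia-like cells.

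**Figure D5:**
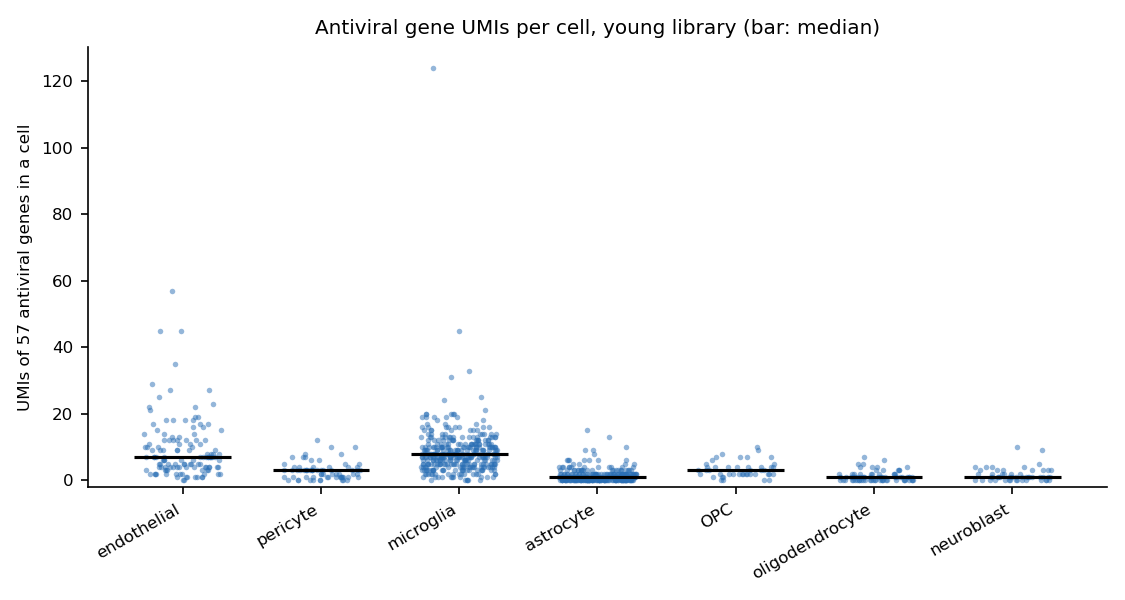
UMIs of the 57 antiviral effector genes in each young-library cell (points, y axis) by class, with a bar at the median. A single microglia-like cell has 124 UMIs and the next has 45, while the highest endothelial-like cell has 57. Cells differ in depth, and per 10,000 UMIs the highest endothelial-like cell of at least 2000 UMIs, at 147, is above that microglia-like cell, at 130.

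After thinning, the antiviral level was 14.1 in the 75 microglia-like cells with a Bst2 UMI (12.3 to 16.2) and 9.76 in the 272 without one (8.95 to 10.6). Without the cell described above it was 12.8 in 74 cells with Bst2 (11.1 to 14.8), and the intervals still did not overlap. With that cell kept, they were also apart for Lgals3bp (16.3 in 38 cells and 10.0 in 309) and Ifitm3 (44.0 in 5 and 10.2 in 342). For Isg15, Stat2, Irf9, Ifi27 and Xaf1 the intervals overlapped. All these intervals rest on UMIs summed over cells of 1 library and leave out the spread between cells. Among the 12 old and 11 young T or NK cell-like cells, a cluster with Isg15 among its top 10 genes, 1 cell stood out too. It had 18 of the 19 old and 14 of the 15 young Isg15 UMIs of that class, 10 of the 13 Bst2 UMIs in each library, and 46 old and 43 young antiviral UMIs, where the median cell of the class had 3. The endothelial-like cell with the most antiviral UMIs had 61 in the old and 57 in the young library, from 29 and 28 genes, beside 43 and 36 Ifitm3 UMIs. Its young antiviral level was 69.7 per 10000 UMIs, and 2 shallower endothelial-like cells had higher ones, 147 from 45 of 3062 UMIs and 106 from 22 of 2077 UMIs.

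Old and young values of the members could not be compared as ages, since nearly all old barcodes were young ones too. Over the barcodes that had the same class in both libraries, 37 member and class pairs had at least 10 UMIs. Their old to young ratios ran from 0.894 to 1.98 with a median of 1.03, and 0 of the 37 intervals lay off 1. These intervals treat the old and young counts as independent, but the counts come from shared barcodes, so they cannot test a difference. Of all 13552 genes compared over the shared brain-class barcodes, 0.0664% differed by 2-fold either way. Summed over the 1113 shared barcodes, Ifitm3 was at 1.68 in the old and 1.70 in the young library, Isg15 at 0.327 and 0.281, and Ifi27 at 1.48 and 1.46.

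The cells with a low mitochondrial share were nearly free of the set. In the young library they had 64 UMIs of Ifitm3, a level of 0.0656 against 1.65 in brain-class cells, spread over 59 of 1315 cells. The other 8 members had at most 6 UMIs each there, and Isg15 had 0, which puts its level at no more than 0.00378. The old library's 289 such cells had 0 to 4 UMIs of each member. Such cells were deeply sequenced in the young library, where their median depth was 7235 UMIs. It was 1576 UMIs in the old library.

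The genes whose levels over the 7 classes were most like those of a member were read from Pearson's r of log2 levels, with 8161 candidate genes of at least 100 UMIs. For Ifitm3 they were Bcam, Esam and Emcn (r of 0.995, 0.994 and 0.990), and for Isg15 they were Cracr2b, Acvrl1 and Clec2d (0.990, 0.982 and 0.981). For Irf7 they were Gata2, Tmem252 and Lef1 (0.991, 0.991 and 0.985), and for Irf9 they were Cr1l, Nmi and Gbp7 (0.996, 0.986 and 0.969). For Bst2 they were Srgn, Arap3 and Sh3tc1 (0.996, 0.988 and 0.987), for Lgals3bp Slc3a2, Rnh1 and Sqor (0.965, 0.963 and 0.958), and for Xaf1 Prickle1, Myo1d and Gatad2a (0.965, 0.949 and 0.946). Stat2 was nearest to Tecpr1, Gsta4 and Ralgapa1 (0.997, 0.988 and 0.981), and Ifi27 to Acot8, Vamp4 and Ncoa2 (0.968, 0.967 and 0.963). With 7 classes that share 1 library, such values are high for many genes. The nearest genes of Isg15 and Irf7 kept first place when the old library was read, on mostly the same cells. Others moved far down. For Irf9, Cr1l, Nmi and Gbp7 stood at ranks 59, 67 and 38. For Bst2, Srgn and Sh3tc1 stood at ranks 70 and 45. Gatad2a stood at rank 75 for Xaf1, and Vamp4 and Ncoa2 at ranks 173 and 693 for Ifi27.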

How the data were processed

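Single-cell RNA of 1 old (16 months) and 1 young (3 months) dentate gyrus library was used as deposited. Per the submitters' processing notes, reads were processed with Cell Ranger 5.0.0 and mm10; for the annotation and the filter on cells, nothing is given in the sources used here. The deposited table holds the natural log of 1 plus UMIs per 10000 for 3893 cells, which the authors had scaled per cell. Undoing the log and dividing by each cell's smallest step gave whole counts (within 0.01) for 100% of the 7332863 values above 0, and these counts were used throughout. The deposited values gave 7451506 old and 16217559 young UMIs.

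Cells were clustered with scanpy 1.11.5 and leidenalg 0.10.2 from 2000 variable genes, of which 1978 were left after interferon genes were removed, with 30 principal components, 15 neighbours and resolution 1. A cluster was named where at least 3 markers of a class were seen in 25% of its cells at 4-fold or more the level elsewhere, and its leading genes did not go against the name. Scrublet marked 18 old and 34 young cells as doublets (1.26% and 1.38%), which were kept and left out as an alternative. Classes were compared with the other brain-class cells on log2(level + 0.1) for genes with at least 20 young UMIs. Exact Poisson, Clopper-Pearson and ratio intervals (scipy 1.17.1, Python 3.11.15) were computed. Named genes were all members, the 2 genes of each list with the most UMIs or those past 4-fold with at least 50 UMIs, and the 3 most alike genes of each member. The members and lists were chosen with earlier results of these data known. Classes were rebuilt here, so they may differ from the study's. The procedures were tested on simulated data. With 1 library per age, no p-value was computed. Alternatives were the clustering resolution and genes, doublets, library, shared barcodes, depth, averaging, pseudocount, filter and fold.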

Additional observations from a re-analysis of the deposited data

Results flagged for a closer look

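The brain-class cells that kept no name, 51 old and 54 young, entered no class comparison, and 6 members had more than 3 young UMIs in them. Ifitm3 had 72 old and 68 young UMIs, of which 65 and 60 were in 1 cell. A sub-cluster led by the neutrophil-associated genes S100a8, S100a9 and Retnlg, with 15 old and 17 young cells, held 70 old and 67 young of these Ifitm3 UMIs. Bst2 had 50 old and 48 young UMIs, spread over 24 and 23 cells. Ifi27 had 20 old and 19 young UMIs, Lgals3bp 18 and 14, Irf9 9 and 15, and Xaf1 4 in each library.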

How the results depend on the processing

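No paired analysis was possible because each age has 1 library and no test was made. No call changed direction. Of 322 alternative values for members' folds that had passed the 2-fold limit, 287 stayed past it. The other 35 fell under it, 26 of them with a pseudocount of 1. Folds under the limit were not followed, so these values could not show a new call. With that pseudocount 2 members, in place of 8, were 2-fold higher in endothelial-like cells, and 0 in place of 1 in microglia-like, oligodendrocyte precursor-like and mature oligodendrocyte-like cells, where 2.85%, 2.73%, 2.49% and 2.74% of all genes passed. At 4-fold these counts were 3 in endothelial-like cells (3.95% of all genes) and 0 in the same 3 classes (2.88%, 3.8% and 3.26%), and with cells thinned to 2000 UMIs the count in mature oligodendrocyte-like cells was 0. A larger pseudocount shrinks the folds of low genes by construction. Of the 106 other interferon-list genes, the pseudocount of 1 left 6 of 42 higher in endothelial-like (2.85% of all genes) and 9 of 29 in microglia-like cells (2.73%), which turned the order of these classes. It left 2 of 7 in pericyte-like cells (2.42%), and 0 in astrocyte-like (3.18%), oligodendrocyte precursor-like (2.49%) and neuroblast-like cells (2.03%). The old library gave 1 in oligodendrocyte precursor-like cells, against 3 in the young. Without thinning, more pairs of members had enough cells. The pairs detected together more often were 13 of 21, in place of 2 of 6, in astrocyte-like, 5 of 6, in place of 1 of 1, in pericyte-like, and 2 of 3, in place of 0 of 1, in mature oligodendrocyte-like cells. They were 1 of 1 in neuroblast-like cells, where thinning left no pair, and 32 in place of 24 of 36 in endothelial-like cells. In microglia-like cells they were 26 in place of 20 of 28. Of all settings, thinning cells to 2000 UMIs moved the most levels and shares of cells. It moved 18 levels and kept 45, and it moved 34 shares and kept 29. Leaving out the cell of each class with the most antiviral UMIs, an alternative chosen after seeing the data, moved 3 of 63 levels and no count of members. At resolution 2 the microglia-like clusters got no name, so that setting gave no microglial value. Low UMI counts limit Irf7 and Stat2 most.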
